A study of Mus musculus with 6 samples.

Results

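Fatty acid uptake and oxidation was followed through 31 genes, chosen by symbol for their place in the path that carries a fatty acid from the capillary into the heart muscle cell and through mitochondrial breakdown. All 31 symbols matched a single row of the deposited table, among 54532 rows. Messenger RNA was sequenced from 3 hearts of ACKR4_KO mice and 3 hearts of wild-type (WT) mice, all C57BL/6 and 8 to 10 weeks old, and all collected at day 14 after myocardial infarction. Both genotypes carried an infarct, and hearts without infarction were not analysed here. ACKR4 is an atypical receptor that removes chemokines without G protein signalling, and the comparison asks what differs in the infarcted heart when it is missing. The sources used here do not say how the knockout was made or which part of the heart was sampled. Nothing in the labels states that the hearts came from separate litters or surgeries, so the p-values measure the spread between these samples.

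The adult heart takes most of its energy from fatty acids. Lipoprotein lipase frees them from blood lipids, transport and binding proteins bring them in, and coenzyme A is attached before the carnitine shuttle passes them across the mitochondrial membranes. Inside, the beta-oxidation spiral shortens the chain, and its first step gives electrons to the electron transfer flavoprotein and from there to ubiquinone. After infarction this programme is known to be lowered in surviving muscle, and scar tissue has little of it.

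Total counts were 10971206 to 12238996 reads in the ACKR4_KO libraries and 9422462 to 13910358 reads in the WT libraries. The targeted gene Ackr4 had 4, 1 and 12 reads in ACKR4_KO hearts, against 165, 151 and 169 reads in WT hearts. The ACKR4_KO libraries differed more among themselves, with a biological coefficient of variation of 26.8%, against 11.7% among the WT libraries. Cardiomyocyte markers were abundant in every library. Lung epithelial markers, summed over 8 genes, reached 0.404 to 1.92 CPM (reads scaled to a common library size) in ACKR4_KO hearts and 39.3 to 240 CPM in WT hearts, with Sftpc at 0 reads in every ACKR4_KO library. Skeletal muscle markers, summed over 7 genes, reached 2.58 to 9.53 CPM in ACKR4_KO hearts and 4.12 to 116 CPM in WT hearts. Adipocyte markers, summed over 6 genes, reached 4.28 to 103 CPM in ACKR4_KO hearts and 11.2 to 305 CPM in WT hearts. The part of these other tissues in the levels of the fatty acid genes was not tested.

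Of the 31 members, 26 had a higher fitted level in ACKR4_KO hearts and 5 a lower one, where 52.0% of the 14406 genes tested were higher. The median log2 fold change, ACKR4_KO minus WT, was 0.25 over the members and 0.012 over all genes. No member passed an adjusted p of 0.05 in edgeR's quasi-likelihood test, nor did any of the genes tested (0%). Even the targeted gene Ackr4, fitted at -4.7 on the log2 scale, missed this threshold. Its adjusted p was 0.099 in that test, whereas DESeq2 put it at 1.4e-18. The lack of calls by edgeR therefore does not show that no gene differed. At an unadjusted p under 0.05 there were 2 members higher and 0 lower, against 3.81% and 3.64% of all genes. The 2 were Etfb and Cpt1b, which were also the 2 members whose groups did not overlap, and 6.53% of all genes had every ACKR4_KO library above every WT library. No member had every ACKR4_KO library below every WT library, against 7.63% of all genes. Etfb and Cpt1b each share most of their exonic bases with another annotated gene, as described with each. By DESeq2, which called 41 of 25472 genes with a read (0.161%), Etfb alone among the members passed. Of these 25472 genes, 7922 were given no adjusted p by DESeq2 and could not be called.

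The members did not keep the same position in the 3 knockout hearts. ACKR4_KO replicate 2 had the highest level of all 6 libraries in 26 members and lay above every WT library in 28. ACKR4_KO replicate 1 lay above every WT library in 19 members, while ACKR4_KO replicate 3 did so in 4 and lay below every WT library in 12. The lowest level belonged to WT replicate 3 in 19 members and to ACKR4_KO replicate 3 in 11. How often other genes took these positions was not computed, so the counts cannot be read as particular to the members. Over all genes tested, the coefficient of variation was larger in ACKR4_KO for 74.7%. Without ACKR4_KO replicate 2 the members' median was 0.062 and 20 were higher, without ACKR4_KO replicate 3 it was 0.41 and 28 were higher, and without WT replicate 3 it was 0.17 and 24 were higher. The summed fibroblast markers ran the other way across the knockout hearts, with 9459, 3845 and 13400 CPM in ACKR4_KO replicates 1, 2 and 3, against 10240, 11620 and 10910 CPM in WT replicates 1, 2 and 3. Not every marker did so. Dcn was lowest in ACKR4_KO replicate 3 (1581, 1006 and 709 CPM in ACKR4_KO replicates 1, 2 and 3). Pdgfra and Lum were lowest in ACKR4_KO replicate 2 but highest of the knockout hearts in replicate 1. ACKR4_KO replicate 2 was thus lowest in summed fibroblast markers and highest in most members, and the part of fibroblasts in the members' values was not tested.

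**Figure D1:**
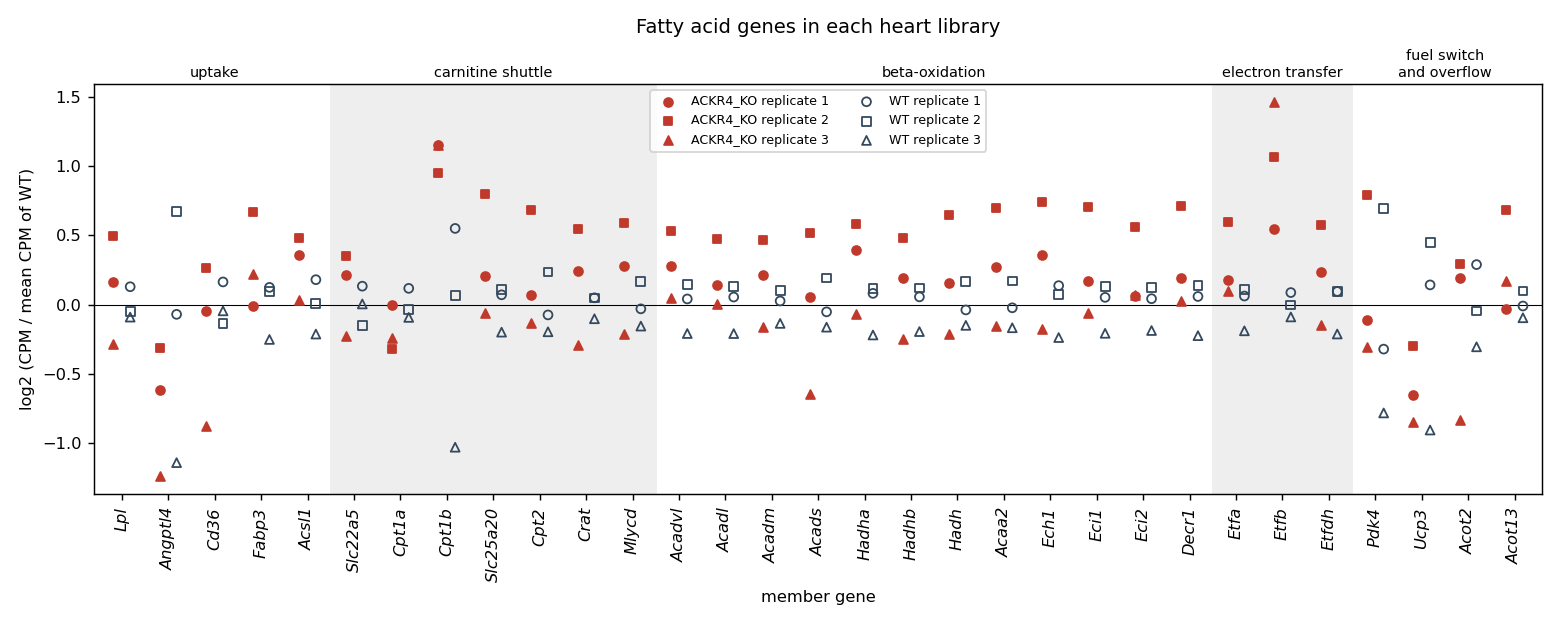
Level of each member in each library, as log2 of its CPM over the mean CPM of the 3 WT libraries (y axis), with genes in order of role (x axis). Filled red symbols are ACKR4_KO and open symbols WT, and circle, square and triangle are replicates 1, 2 and 3. The filled square, ACKR4_KO replicate 2, is the highest point in 26 of the 31 genes, and only Etfb and Cpt1b have all filled points above all open ones.

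Per kilobase of exon the members spanned a wide range. Fabp3, the heart-type fatty acid binding protein of the cytosol, was at the top with 3401 CPM per kilobase in ACKR4_KO and 2725 in WT. Cd36, Acadl, Ech1, Acaa2 and Lpl followed, between 330 and 408 CPM per kilobase in ACKR4_KO and between 296 and 419 in WT. Over all its annotated exons Cpt1b was at the bottom with 1.24 CPM per kilobase in ACKR4_KO and 0.583 in WT, below Angptl4 and Ucp3. This rank is uncertain, since 81.4% of the Cpt1b exonic bases are shared with another gene, as described below. If reads were counted on its unshared bases alone, Cpt1b stood at 6.64 in ACKR4_KO and 3.13 in WT. Angptl4 stood at 3.60 in ACKR4_KO and 5.74 in WT, and Ucp3 at 3.85 and 5.76.

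**Figure D2:**
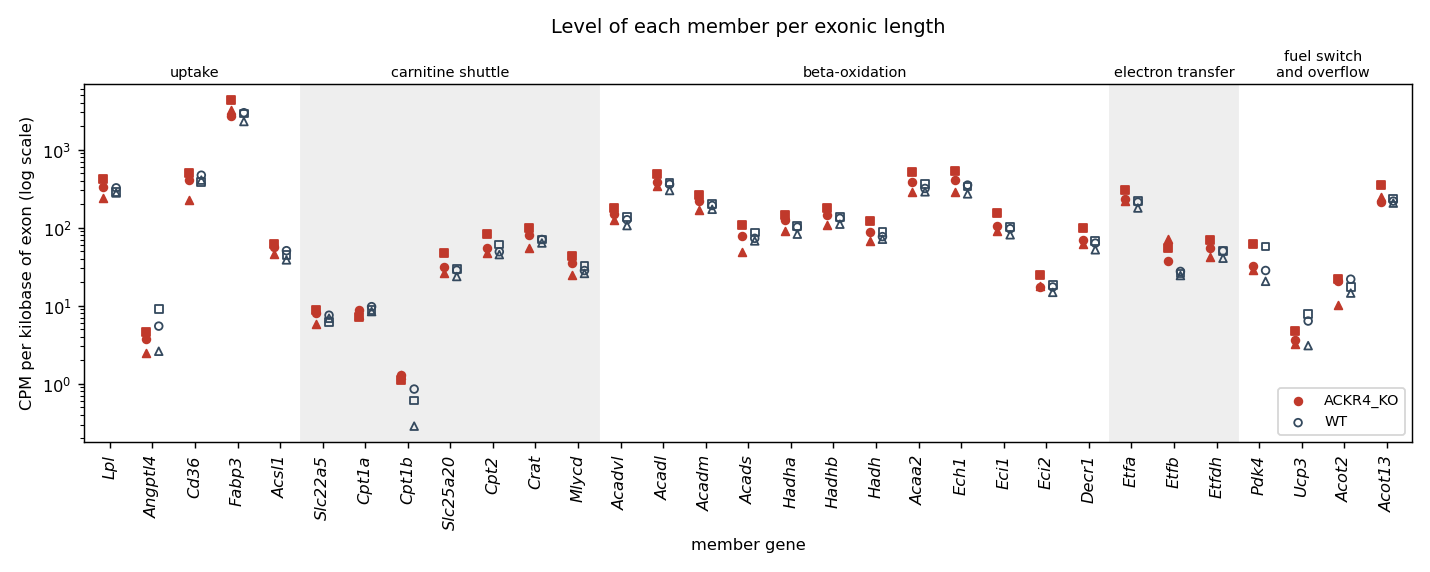
CPM per kilobase of exon of each member (y axis, log scale) in the 3 ACKR4_KO libraries (filled, left) and the 3 WT libraries (open, right), with genes in order of role. Fabp3 is the most abundant member in both genotypes. Over all annotated exons Cpt1b is the least abundant, but most of its exonic bases are shared with another gene, so its rank is uncertain.

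Uptake and activation were represented by 5 genes, of which 3 were higher and 2 lower in ACKR4_KO, with a median log2 fold change of 0.16 that was -0.041 without ACKR4_KO replicate 2 and 0.34 without ACKR4_KO replicate 3. Fabp3 stood at 2227, 3554 and 2617 CPM in ACKR4_KO replicates 1, 2 and 3, against 2444, 2399 and 1884 CPM in WT replicates 1, 2 and 3. Its high value was that of ACKR4_KO replicate 2, and replicate 1 lay inside the WT range. Its log2 fold change came to 0.32 ± 0.23 (standard error). Acsl1, the long-chain synthetase that attaches coenzyme A, had 600, 655 and 480 CPM in ACKR4_KO, against 531, 471 and 405 CPM in WT. Its groups overlapped through ACKR4_KO replicate 3, and the fold change was 0.30 ± 0.18 (log2 ± standard error).

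Lpl, the lipase that frees fatty acids from circulating triglyceride, had 3467, 4375 and 2543 CPM in ACKR4_KO, against 3391, 2999 and 2913 CPM in WT. The fatty acid translocase Cd36, made by both muscle cells and capillary endothelium, had 1461, 1809 and 819 CPM in ACKR4_KO, against 1686, 1371 and 1459 CPM in WT. For both genes ACKR4_KO replicate 2 was the highest library and replicate 3 the lowest, so the knockout values spread around the WT values on both sides. The log2 fold change of Cd36 was -0.14 with all libraries and 0.12 without ACKR4_KO replicate 3, and that of Lpl was 0.16, and -0.041 without ACKR4_KO replicate 2. Endothelial markers were lower in ACKR4_KO in 8 of 8 genes, with summed levels of 1429, 1789 and 1317 CPM in ACKR4_KO, against 1787, 1793 and 1938 CPM in WT, and their part in the Cd36 and Lpl values was not tested. In such bulk samples fewer cells of a type and less RNA per cell cannot be told apart.

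Angptl4, a secreted inhibitor of lipoprotein lipase, had 13.3, 16.4 and 8.64 CPM in ACKR4_KO, against 19.4, 32.4 and 9.23 CPM in WT. The WT hearts alone spanned the whole range of the knockout values apart from ACKR4_KO replicate 3. The log2 fold change came to -0.66 ± 0.46 (standard error), and it was -0.16 without WT replicate 2 and -1.02 without WT replicate 3. Adipocytes also make Angptl4, and the summed adipocyte markers were 103, 18.3 and 4.28 CPM in ACKR4_KO, against 305, 48.4 and 11.2 CPM in WT. Both Angptl4 and these markers were lowest in replicate 3 of each genotype, and the part of adipocytes in the Angptl4 values was not tested.

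The carnitine shuttle and its control held 7 genes, 6 of them higher in ACKR4_KO, with a median of 0.25 that was 0.014 without ACKR4_KO replicate 2, 0.16 without WT replicate 3 and 0.42 without ACKR4_KO replicate 3. Slc25a20, which exchanges acylcarnitine for carnitine across the inner membrane, had 152, 229 and 126 CPM in ACKR4_KO, against 138, 142 and 115 CPM in WT. Its ACKR4_KO replicate 3 lay within the WT range, and the log2 fold change was 0.36 ± 0.22 (standard error). Crat, the carnitine acetyltransferase that buffers acetyl groups, was the most abundant of the 7 per length, at 434, 535 and 300 CPM in ACKR4_KO, against 380, 380 and 342 CPM in WT, and ACKR4_KO replicate 3 was its lowest library. Cpt2, which returns the acyl group to coenzyme A in the matrix, averaged 147 ± 45.4 CPM in ACKR4_KO and 124 ± 19.5 CPM in WT (mean ± SD, n = 3 each). Mlycd, which degrades malonyl-CoA and so relieves the brake on the shuttle, averaged 102 ± 27.4 CPM in ACKR4_KO and 85.5 ± 9.72 CPM in WT. The plasma membrane carnitine transporter Slc22a5 averaged 23.2 ± 4.59 CPM in ACKR4_KO and 21.1 ± 2.08 CPM in WT, a difference smaller than the spread in either group.

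The rate-limiting first step of the shuttle has a broadly expressed isoform, Cpt1a, and a muscle isoform, Cpt1b, which is known as the main form of the adult heart. Cpt1a had 68.2, 54.9 and 57.8 CPM in ACKR4_KO, against 74.2, 66.9 and 64.2 CPM in WT, with a log2 fold change of -0.18 ± 0.13 (standard error). It was the only gene of the shuttle with a lower fitted level, and ACKR4_KO replicate 1 lay between the WT values. Cpt1b had 54, 37 and 50 reads in ACKR4_KO, against 37, 20 and 14 reads in WT, which is 4.36, 3.79 and 4.37 CPM against 2.88, 2.06 and 0.964 CPM. All ACKR4_KO values lay above all WT values. The log2 fold change came to 1.09 ± 0.39 (standard error), the adjusted p was 0.661 by edgeR, and the adjusted p lay between 0.292 and 0.999 over 16 alternatives. Whether the Cpt1b count covers the whole transcript cannot be told from the table. In GENCODE M21 (GRCm38), Cpt1b on chromosome 15, 89416405 to 89425863 on the minus strand, shares 2744 of its 3372 exonic bases (81.4%) with Gm44502, a gene of readthrough transcripts on the same strand, and Gm44502 had 0 reads in every library. The 628 bases that Cpt1b does not share lie mainly at its 5′ end, and if reads were counted on these alone the level per kilobase was 6.64 ± 0.526 CPM in ACKR4_KO and 3.13 ± 1.53 CPM in WT. The sources used here do not say how reads in shared exons were assigned, so the level of Cpt1b, its share against Cpt1a and its fold change are uncertain.

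In beta-oxidation 12 of 12 genes had a higher fitted level in ACKR4_KO, where 52.0% of all genes were higher. The log2 fold changes ran from 0.050 for Acads to 0.36 for Ech1 with a median of 0.28, which was 0.074 without ACKR4_KO replicate 2, 0.42 without ACKR4_KO replicate 3 and 0.19 without WT replicate 3. All 12 had their highest level in ACKR4_KO replicate 2, and none had ACKR4_KO replicate 3 above every WT library. The share of all genes with these positions was not computed. No gene of the group reached an unadjusted p under 0.05.

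The acyl-CoA dehydrogenases take the first step, each for a range of chain lengths. Acadvl, for very long chains, had 400, 477 and 341 CPM in ACKR4_KO, against 339, 365 and 285 CPM in WT, and Acadl, for long chains, had 765, 963 and 694 CPM in ACKR4_KO, against 720, 760 and 600 CPM in WT. In both genes ACKR4_KO replicates 1 and 2 lay above the WT range and replicate 3 within it. The log2 fold changes were 0.30 ± 0.17 for Acadvl and 0.22 ± 0.18 for Acadl (standard error). Of the Acadvl exonic bases 42.9% overlap Dvl2 on the opposite strand, and whether the counting used strand is not stated. Acadm, for medium chains, averaged 845 ± 181 CPM in ACKR4_KO and 738 ± 60.5 CPM in WT. Acads, for short chains, had 178, 245 and 110 CPM in ACKR4_KO, against 166, 196 and 153 CPM in WT, and its sign turned without ACKR4_KO replicate 2 (log2 fold change -0.25).

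The mitochondrial trifunctional protein carries out the later steps on long chains, and its subunits Hadha and Hadhb are encoded head to head on chromosome 5. Hadha had 1100, 1257 and 798 CPM in ACKR4_KO, against 887, 908 and 720 CPM in WT, and Hadhb had 956, 1165 and 704 CPM in ACKR4_KO, against 869, 908 and 730 CPM in WT. The subunits followed the same order of libraries within each genotype. Their log2 fold changes were 0.33 ± 0.21 for Hadha and 0.17 ± 0.21 for Hadhb (standard error). Hadh, the dehydrogenase for shorter hydroxyacyl chains, had 436, 614 and 339 CPM in ACKR4_KO, against 382, 441 and 353 CPM in WT. The thiolase Acaa2, which releases acetyl-CoA, averaged 607 ± 178 CPM in ACKR4_KO and 490 ± 57.8 CPM in WT.

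Unsaturated fatty acids need auxiliary enzymes before they can enter the spiral. Among these the dienoyl-CoA reductase Decr1 had 269, 386 and 240 CPM in ACKR4_KO, against 246, 260 and 202 CPM in WT. Its log2 fold change was 0.34 ± 0.20 (standard error), with ACKR4_KO replicate 3 inside the WT range. The isomerase Ech1 averaged 932 ± 286 CPM in ACKR4_KO and 729 ± 97.4 CPM in WT. Eci1 and Eci2, which shift the double bond of enoyl-CoA, averaged 246 ± 69.8 and 111 ± 23.0 CPM in ACKR4_KO, against 199 ± 23.7 and 93.4 ± 10.2 CPM in WT.

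The promoter windows of Acadvl and of Hadhb, which overlaps that of Hadha by 228 bases, are shown with those of Etfb, the member with the smallest p, and of Cpt1a, the shuttle gene that was lower in ACKR4_KO. Acadvl has the second smallest p among the members with a window in the RefSeq table used, and Hadhb was added after values were seen. Each runs from 250 bases before to 50 bases after the start (RefSeq, GRCm38.p6), on the strand of the gene, at chr11:70015379-70015678 on the minus strand for Acadvl, chr5:30155003-30155302 on the plus strand for Hadhb, chr7:43443822-43444121 on the plus strand for Etfb and chr19:3323051-3323350 on the plus strand for Cpt1a. Capitals mark AGGTCA, the half-site bound by PPAR, RXR and ERR nuclear receptors, found on either strand.
Acadvl: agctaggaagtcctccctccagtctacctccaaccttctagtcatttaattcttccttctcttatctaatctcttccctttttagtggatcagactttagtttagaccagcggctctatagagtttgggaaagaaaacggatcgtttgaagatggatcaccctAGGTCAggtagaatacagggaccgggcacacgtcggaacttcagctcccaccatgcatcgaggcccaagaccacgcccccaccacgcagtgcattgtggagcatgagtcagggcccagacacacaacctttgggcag
Hadhb: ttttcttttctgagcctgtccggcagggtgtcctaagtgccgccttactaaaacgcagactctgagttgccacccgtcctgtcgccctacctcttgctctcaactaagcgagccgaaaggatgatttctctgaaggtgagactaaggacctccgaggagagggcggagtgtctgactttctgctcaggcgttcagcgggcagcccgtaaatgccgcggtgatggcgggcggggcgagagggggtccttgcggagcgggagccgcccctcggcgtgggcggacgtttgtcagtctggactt
Etfb: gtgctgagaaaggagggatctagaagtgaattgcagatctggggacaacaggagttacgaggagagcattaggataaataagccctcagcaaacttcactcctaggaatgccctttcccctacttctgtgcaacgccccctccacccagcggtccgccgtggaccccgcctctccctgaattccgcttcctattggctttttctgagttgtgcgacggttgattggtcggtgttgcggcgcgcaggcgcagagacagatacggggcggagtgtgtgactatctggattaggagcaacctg
Cpt1a: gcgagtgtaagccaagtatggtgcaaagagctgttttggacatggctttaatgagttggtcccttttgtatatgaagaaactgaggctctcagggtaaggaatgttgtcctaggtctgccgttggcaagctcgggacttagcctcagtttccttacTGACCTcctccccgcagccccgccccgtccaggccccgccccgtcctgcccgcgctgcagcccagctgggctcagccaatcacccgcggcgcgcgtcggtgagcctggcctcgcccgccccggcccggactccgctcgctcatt
Acadvl holds the half-site between 87 and 82 bases before its start, and Cpt1a holds it on the opposite strand between 94 and 89 bases before its start. Windows were found for 24 members, and the half-site was in those of 5, Acadm, Cd36, Ucp3, Acadvl and Cpt1a, where 16.3% of 32851 windows of all genes held it. The PPAR element, taken as AGGTCA repeated head to tail with 1 free base between, and the ERR element TCAAGGTCA, both of which contain the half-site, were searched on both strands and were in 0 member windows, against 0.0396% and 0.423% of all windows. Members with the half-site had fitted fold changes of both signs. Median base composition was 60.7% G and C in the member windows and 52.7% in all windows.

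Electron transfer from the dehydrogenases to ubiquinone was represented by 3 genes, all with a higher fitted level in ACKR4_KO and a median log2 fold change of 0.31 that was 0.14 without ACKR4_KO replicate 2 and 0.42 without ACKR4_KO replicate 3. Etfa, the alpha subunit of the flavoprotein, had 421, 565 and 399 CPM in ACKR4_KO, against 390, 403 and 327 CPM in WT. Its groups overlapped only through ACKR4_KO replicate 3, and the fold change was 0.31 ± 0.18 (log2 ± standard error). Etfdh, the oxidoreductase that passes the electrons on, averaged 420 ± 104 CPM in ACKR4_KO and 353 ± 41.7 CPM in WT.

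Etfb, the beta subunit, had the largest departure among the members expressed above a few CPM. It was counted at 545, 615 and 948 reads in ACKR4_KO, against 411, 292 and 411 reads in WT, which is 44.0, 63.0 and 82.8 CPM against 32.0, 30.0 and 28.3 CPM. All ACKR4_KO values lay above the WT values, and the highest was that of replicate 3, the library that was the lowest of the 6 in 11 members. The log2 fold change came to 1.07 ± 0.21 (standard error), a 2.10-fold higher level. The adjusted p was 0.462 by edgeR's quasi-likelihood test, 0.00389 by DESeq2 and 0.0238 by edgeR with no filter on low counts, a fit that called 0.0942% of 25472 genes, and it ranged from 0.00389 to 0.999 over the 16 alternatives. In every alternative the fold change kept its sign, between 0.64 and 1.28.

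The Etfb count carries the same limit. On chromosome 7, 43444083 to 43457800 on the plus strand of GRCm38, Etfb shares 617 of 1164 exonic bases (53.0%) with Gm45233, a gene of readthrough transcripts that had 0 reads in every library, and 61 bases (5.24%) also lie in the microRNA gene Mir7051. The 547 unshared bases are 45 at the 5′ end and 210 and 292 toward the 3′ end, the last reaching from 43457509 to 43457800. If reads were counted on these alone, Etfb stood per kilobase at 116 ± 35.4 CPM in ACKR4_KO and 55.1 ± 3.36 CPM in WT, whereas Etfa, with which it forms a heterodimer, stood at 251 CPM in ACKR4_KO and 203 CPM in WT per kilobase of all its exons. The fold change of Etfb is therefore uncertain as a measure of the whole transcript, since the handling of shared reads is not stated. Etfb and Cpt1b were the only members with exonic bases shared with a gene on the same strand. Among the genes tested, 61 had at least 50% of their exonic bases shared in this way. An unadjusted p under 0.05 in edgeR was reached by 4 of them (6.56%), against 7.45% of all genes. This rate does not tell whether the fold changes of Etfb and Cpt1b measure the whole transcript. With both genes removed, an alternative chosen after seeing the data, 24 of the remaining members were higher and the members' median was 0.25.

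**Figure D3:**
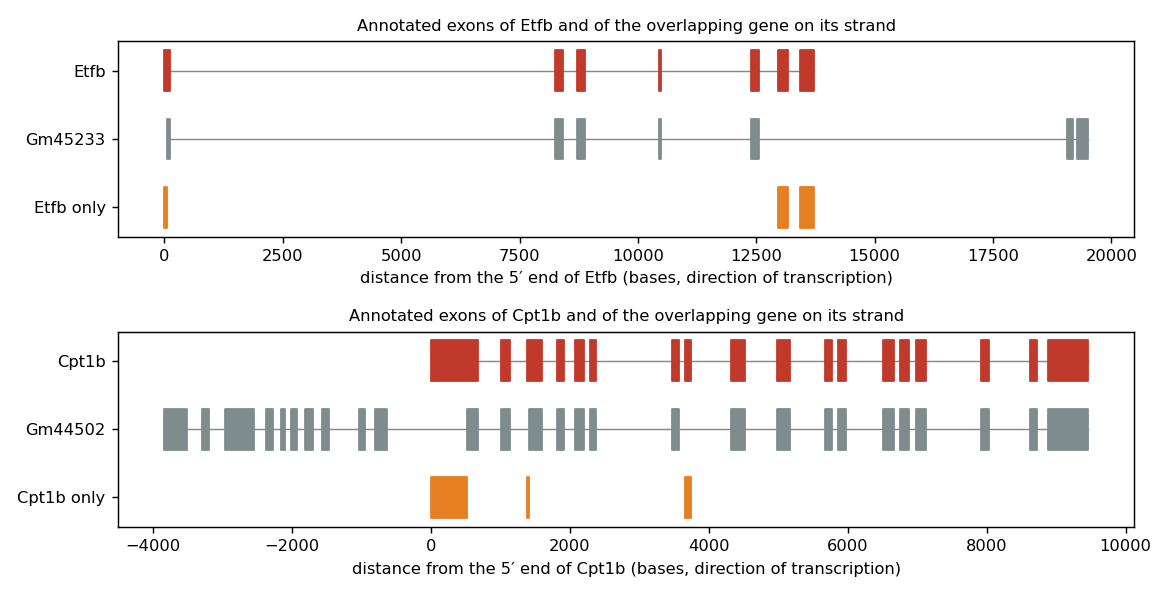
Annotated exons (boxes) of Etfb and Gm45233, and of Cpt1b and Gm44502, against the distance in bases from the 5′ end of Etfb or Cpt1b (x axis, GENCODE M21). The lowest track of each panel holds the exonic bases that Etfb (547) or Cpt1b (628) does not share, which lie mostly toward the 3′ end of Etfb and the 5′ end of Cpt1b.

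Genes of the fuel switch and of overflow, which limit glucose use or dispose of surplus acyl groups, were split. Of 4, 2 were higher and 2 lower, with a median log2 fold change of 0.088. This median was -0.21 without ACKR4_KO replicate 2, -0.12 without WT replicate 3, 0.15 without WT replicate 2 and 0.31 without ACKR4_KO replicate 3. Pdk4, the kinase that shuts down pyruvate dehydrogenase, had 115, 214 and 100 CPM in ACKR4_KO, against 99.1, 200 and 72.0 CPM in WT. Its replicate 2 was high in both genotypes, so the spread within each group exceeded the difference between them (0.21 ± 0.45, log2 ± standard error). Ucp3, an uncoupling protein of muscle mitochondria, had 11.5, 14.7 and 10.0 CPM in ACKR4_KO, against 19.9, 24.6 and 9.64 CPM in WT. The ACKR4_KO values lay between WT replicate 3 and the other WT hearts, and the log2 fold change was -0.58 ± 0.33 (standard error), -0.29 without WT replicate 2 and -0.88 without WT replicate 3. Skeletal muscle also makes Ucp3, and its summed markers were at 2.58, 9.53 and 4.45 CPM in ACKR4_KO replicates 1, 2 and 3, against 4.12, 92.5 and 116 CPM in WT replicates 1, 2 and 3. WT replicates 2 and 3 thus held most of these markers, and had the most and the least Ucp3 of all libraries. The part of skeletal muscle in the Ucp3 values was not tested. The thioesterase Acot13 had 160, 263 and 185 CPM in ACKR4_KO, against 163, 175 and 153 CPM in WT, with ACKR4_KO replicate 1 inside the WT range and a log2 fold change of 0.31 ± 0.19 (standard error). The mitochondrial thioesterase Acot2 averaged 38.4 ± 14.3 CPM in ACKR4_KO and 39.3 ± 8.16 CPM in WT.

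The levels of the members were set beside those of contractile genes that mark cardiomyocytes. The 12 markers were higher in ACKR4_KO in 12 of 12 cases, the median log2 fold change being 0.42, with 0 past the adjusted threshold. Their summed level was 41100, 57770 and 51510 CPM in ACKR4_KO, against 38290, 41700 and 32650 CPM in WT, and the 31 members summed to 16700, 21880 and 13530 CPM in ACKR4_KO, against 15960, 15640 and 13350 CPM in WT. Both sums were highest in ACKR4_KO replicate 2. In ACKR4_KO replicate 3 the marker sum lay above every WT library, whereas the member sum lay within the WT range. Not every marker lay above WT in that heart. Pln, at 896 CPM, was below every WT library (899 to 1109 CPM), and Tnni3 and Myl3 were within the WT range. The other markers were above it, among them Actc1 at 10700 CPM, against 4692 to 6663 CPM in WT. The sum weighs the most abundant markers most. Per 1000 marker reads the members gave 406, 379 and 263 reads in ACKR4_KO replicates 1, 2 and 3, against 417, 375 and 409 reads in WT replicates 1, 2 and 3. By this ratio ACKR4_KO replicates 1 and 2 lay inside the WT range and replicate 3 below it. The beta-oxidation genes gave 166, 149 and 102 reads per 1000 marker reads in ACKR4_KO, against 155, 150 and 154 reads in WT.

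With libraries scaled to the marker reads, 2 of the 31 members, Etfb and Cpt1b, were higher in ACKR4_KO, where 8.28% of all genes were higher, and the members' median was -0.17. That scaling moved the median of all genes to -0.39, and 26 members stayed above this median, as 26 lay above the median of all genes under the usual scaling. By median, the members were higher relative to the typical gene in ACKR4_KO and lower relative to the contractile markers. The share of muscle and scar in each sample was not measured.

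**Figure D4:**
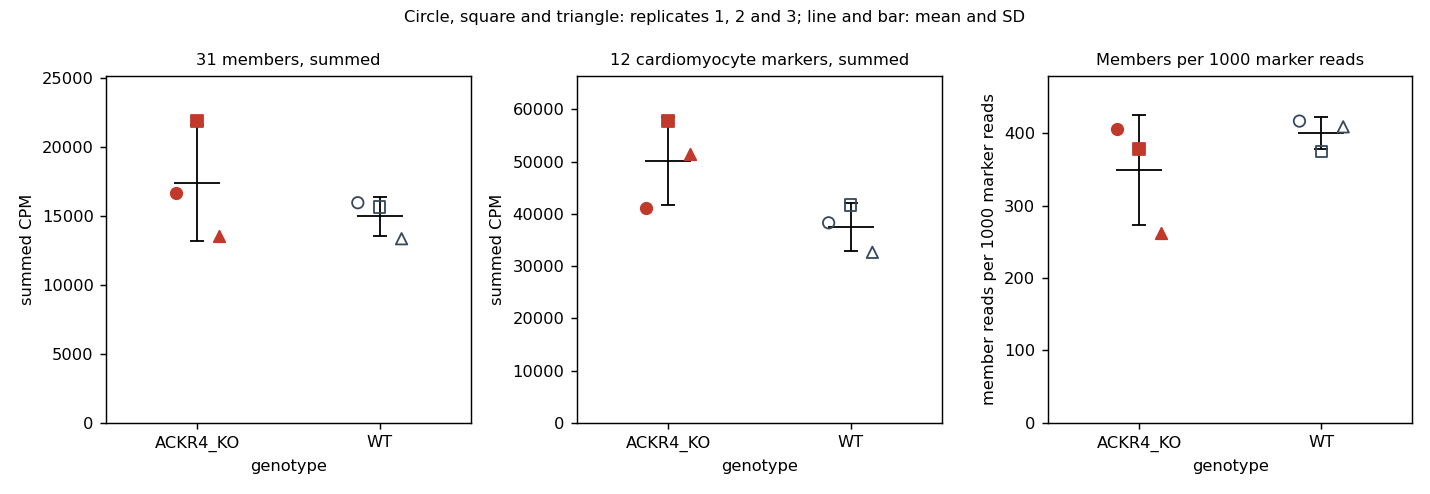
Summed CPM of the 31 members (left) and of 12 cardiomyocyte markers (middle), and member reads per 1000 marker reads (right), in ACKR4_KO and WT hearts, with circle, square and triangle for replicates 1, 2 and 3 and a line and bar for mean and SD (n = 3). The ratio of ACKR4_KO replicate 3 is 263, below every other library, which lie between 375 and 417.

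**Figure D5:**
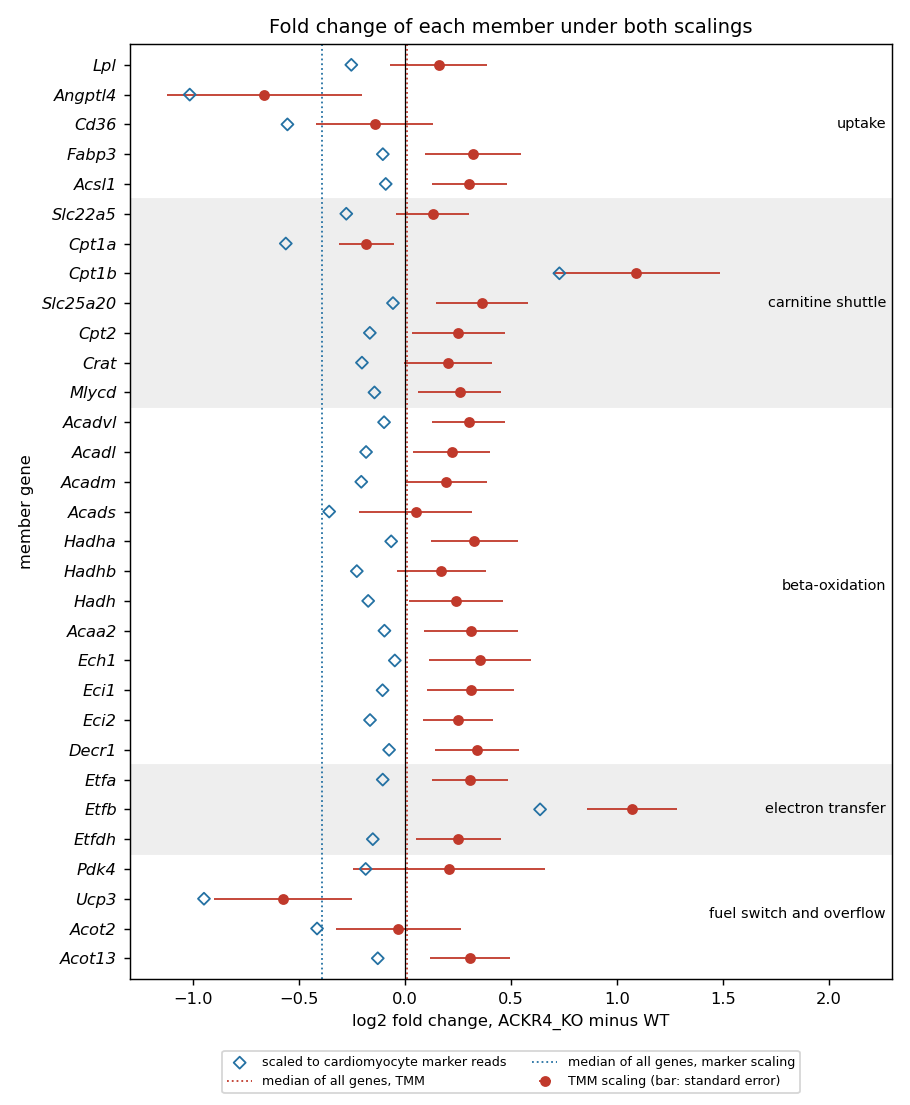
Fitted log2 fold change of each member, ACKR4_KO minus WT, with TMM scaling (filled circles, bars are standard errors) and with libraries scaled to cardiomyocyte marker reads (open diamonds), and the median of all genes under each (dotted lines, 0.012 and -0.39). Under TMM 26 members lie right of 0, and under marker scaling 2 do.

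Other genes of fatty acid handling were read from 9 lists, and 0 genes in any of them passed the adjusted threshold by edgeR with its filter on low counts. With libraries scaled to cardiomyocyte markers the medians of 8 of these lists reported here were all negative, where the median of all genes was -0.39. In the list of further mitochondrial oxidation 13 of 15 genes were higher, with a median of 0.23, which was 0.077 without ACKR4_KO replicate 2 and -0.17 under marker scaling. The list was led in level by Acat1, a thiolase at 442 ± 89.4 CPM in ACKR4_KO and 362 ± 25.4 CPM in WT, and Acss1, the acetyl-CoA synthetase of the matrix. Pcca and Hsd17b10 had its smallest p, with log2 fold changes of 0.34 and 0.35. Electron transfer partners were higher in 7 of 8 genes tested, with a median of 0.20, which was 0.035 without ACKR4_KO replicate 2, 0.32 without ACKR4_KO replicate 3 and -0.20 under marker scaling. Among them were the ubiquinone synthesis gene Coq7 at 0.45, Etfbkmt, a methyltransferase of the ETF beta subunit, at 0.28, and the abundant Coq9 and Ivd at 0.25 and 0.23 (log2 fold change).

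The regulators of the PPAR and ERR families and their coactivators were higher in 12 of 13 genes, with a median log2 fold change of 0.30, which was 0.46 without ACKR4_KO replicate 3 and -0.094 under marker scaling. Of these 13, 5 had an unadjusted p under 0.05 and 4 had groups that did not overlap, against 3.81% and 6.53% of all genes in that direction. Among the 5 was Lpin1, which is also in the list of triglyceride storage and lipolysis. The coactivator Ppargc1b averaged 11.3 ± 5.11 CPM in ACKR4_KO and 5.67 ± 0.459 CPM in WT, and the orphan receptor Esrra averaged 196 ± 27.8 CPM in ACKR4_KO and 149 ± 16.9 CPM in WT. Rxrg, a partner of PPAR, had a log2 fold change of 0.27. Ppargc1a had the smallest p of the list and a log2 fold change of 0.81 ± 0.18 (standard error), with an adjusted p of 0.606 by edgeR, 0.0487 by DESeq2 and 0.0258 by edgeR with no filter on low counts.

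Pyruvate dehydrogenase and its control were higher in 10 of 12 genes, with a median of 0.20, which was 0.058 without ACKR4_KO replicate 2 and -0.22 under marker scaling. Dlat and Pdhb, subunits of the complex, had the smallest p with log2 fold changes of 0.37 and 0.36, and Pdha1 and Pdk2 had 0.19 and 0.23. Among ketone body genes, the ketolytic enzyme Oxct1 averaged 897 ± 224 CPM in ACKR4_KO and 758 ± 40.7 CPM in WT, and the monocarboxylate carrier Slc16a1 had a log2 fold change of 0.29. Triglyceride storage and lipolysis genes were higher in 10 of 15, with a median of 0.15, which was 0.039 without ACKR4_KO replicate 2 and -0.26 under marker scaling. In it the lipid droplet protein Plin4 had a log2 fold change of 0.45, the phosphatase Lpin1 0.41, the lipase Pnpla2 0.20 and the acyltransferase Dgat2 0.30.

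Peroxisomal oxidation stood nearer to the typical gene, with 10 of 13 tested genes higher and a median of 0.065. It was 0.032 without WT replicate 3, 0.13 without WT replicate 2, 0.15 without ACKR4_KO replicate 3, 0.19 without WT replicate 1 and -0.34 under marker scaling. Amacr and the transporter Abcd3 had its smallest p with log2 fold changes of 0.35 and 0.26, while the abundant Phyh and Scp2 had 0.065 and 0.13. Further uptake and activation genes were higher in 8 of 15, with a median of 0.10, which was -0.0071 without ACKR4_KO replicate 2 and -0.31 under marker scaling. Slc27a1, a fatty acid transport protein, averaged 110 ± 9.86 CPM in ACKR4_KO and 83.4 ± 10.9 CPM in WT, with no overlap of the groups, and the synthetase Acsl5 averaged 39.9 ± 4.12 CPM in ACKR4_KO and 49.1 ± 0.675 CPM in WT, with none in the other direction. Fabp4, the binding protein of endothelium and fat, and Dbi had log2 fold changes of -0.095 and 0.20. Of the genes of malonyl-CoA and lipid synthesis 7 of 10 had a lower fitted level, with a median of -0.13, which was -0.38 without ACKR4_KO replicate 1, -0.25 without WT replicate 2, -0.011 without ACKR4_KO replicate 3, -0.044 without WT replicate 1 and -0.51 under marker scaling. Within it Mlxipl, a carbohydrate-response factor, and Acacb, which makes the malonyl-CoA that inhibits the shuttle, were higher, with log2 fold changes of 0.58 and 0.29, while Thrsp had 0.12 and Acly -0.090.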

How the data were processed

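The authors deposited raw counts per gene in each library, made with CASAVA 1.8.2, HISAT2 and HTSeq 0.6.0 on mm10 per the submitters' processing notes. The sources used here do not give the annotation release, strand setting or treatment of shared reads. Symbols, positions and exonic lengths came from GENCODE M21 on GRCm38, the assembly of mm10. The members and lists were chosen with earlier results of these data known.

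Genes were filtered with filterByExpr of edgeR 4.0.16 (minimum count 10, total 15), which kept all 31 members among 14406 genes. Libraries were scaled by TMM and tested with the robust quasi-likelihood test (R 4.3.3), with p-values adjusted over all genes by Benjamini-Hochberg and called at 0.05. The standard error is the log2 fold change over the root of the statistic. CPM uses TMM-scaled library sizes. DESeq2 1.42.0 and limma-voom (limma 3.58.1) were among the alternatives. Depth limits precision, and 3 reads correspond to 0.216 to 0.318 CPM.

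Every member is named. Values in every library are given at least for the 10 members with the smallest p and the most abundant of each role, and each list names the 2 genes with the smallest p and the 2 most abundant, except that some genes of the ketone body list are not reported here.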

Additional observations from a re-analysis of the deposited data

How the results depend on the processing

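Over 16 alternatives the count of genes past the threshold was 0 in most and moved to 41 with DESeq2, 24 with no filter on low counts, 6 with the replicate block, 2 with libraries scaled to cardiomyocyte markers, and 0 to 1 with a library left out. Etfb was the 1 member that passed with DESeq2 and with no filter. Same-numbered libraries deviated together only weakly (correlations 0.067, 0.053 and 0.13), and libraries of different number had correlations from -0.12 to 0.063. With so few libraries these values cannot tell whether same-numbered libraries were handled together, and the labels do not state it. Under the block 0 members passed and the members' median was 0.23.

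Scaling to cardiomyocyte markers left 2 members higher. The medians were then -0.17 over the members, -0.25 for uptake, -0.17 for the carnitine shuttle, -0.14 for beta-oxidation and -0.11 for electron transfer. Under it the median of all genes was -0.39 and 8.28% of all genes were higher, so signs turned with the common shift, and 26 members stayed above that median. The 24 members that turned were Lpl -0.25, Fabp3 -0.10, Acsl1 -0.091, Slc22a5 -0.28, Slc25a20 -0.057, Cpt2 -0.17, Crat -0.20, Mlycd -0.14, Acadvl -0.099, Acadl -0.18, Acadm -0.21, Acads -0.36, Hadha -0.065, Hadhb -0.23, Hadh -0.17, Acaa2 -0.097, Ech1 -0.048, Eci1 -0.11, Eci2 -0.17, Decr1 -0.075, Etfa -0.11, Etfdh -0.15, Pdk4 -0.19 and Acot13 -0.13.

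Leaving out 1 library at a time, the median of the carnitine shuttle ran from 0.014 to 0.42, and log2 fold changes that turned sign ran from -0.041 to 0.34 for Lpl, -0.40 to 0.12 for Cd36, -0.021 to 0.42 for Cpt2, -0.25 to 0.31 for Acads, -0.0060 to 0.35 for Hadhb, -0.013 to 0.43 for Hadh, -0.20 to 0.74 for Pdk4 and -0.22 to 0.25 for Acot2. Acads also turned with limma-voom (-0.018) and with the replicate block (-0.016). The cause of these moves was not tested.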

Other observations

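Within a library, the share of each partner in a pair of related genes does not depend on library scaling. Per exonic length, Hadha made up 46.5%, 44.9% and 46.2% of Hadha and Hadhb together in ACKR4_KO replicates 1, 2 and 3, against 43.6%, 43.0% and 42.7% in WT replicates 1, 2 and 3, with no overlap between the groups. Eci1 made up 85.7%, 86.0% and 83.5% of Eci1 and Eci2 in ACKR4_KO, against 84.8%, 84.8% and 84.5% in WT, and these overlapped. Etfb made up 17.9% ± 5.85 of Etfb and Etfa in ACKR4_KO and 11.3% ± 0.744 in WT (mean ± SD, n = 3 each), with most Etfb exonic bases shared with another gene. Cpt1a made up 86.4% ± 0.978 of Cpt1a and Cpt1b in ACKR4_KO and 94.0% ± 2.44 in WT, with the same limit for Cpt1b. The groups did not overlap in these pairs either. The pairs were chosen after values were seen, and no test was made of them. How often other gene pairs fail to overlap was not computed.

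The members also differed in how steady they were between hearts. The median coefficient of variation of a member was 26.5% among ACKR4_KO libraries and 11.8% among WT libraries, and it was larger in ACKR4_KO for 27 of 31. Over all genes tested the medians were 18.3% among ACKR4_KO libraries and 10.3% among WT libraries, and it was larger in ACKR4_KO for 74.7%. Cpt1b (7.92% in ACKR4_KO, 48.8% in WT), Angptl4 (30.5% in ACKR4_KO, 57.1% in WT), Pdk4 (43.3% in ACKR4_KO, 54.6% in WT) and Ucp3 (19.6% in ACKR4_KO, 42.4% in WT) were the exceptions.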
